A study of Mus musculus with 12 samples.

Results

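The late part of the subjective day was examined in CD8+ T cells, the cytotoxic lymphocytes of adaptive immunity, by setting libraries of circadian time (CT) 10 against libraries of CT6. The comparison used 4 of the 12 libraries of the series, chosen by their labelled time point. They were 2 libraries of CT10 and 2 of CT6, each with 1 library from day 1 and 1 from day 2. All came from lymph nodes of male C57BL/6J mice aged 8 weeks, without any genetic change or agent named, and all animals were in constant darkness, where the internal clock alone sets the time. The other 8 libraries, of CT2, CT14, CT18 and CT22 on both days, served to estimate the spread. The labels name neither the number of mice behind a library nor the way the cells were purified, so the p-values below speak of the spread among these libraries, which may be in part technical.

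CT0 to CT12 is by convention the subjective day, when mice rest, and the night that follows is their active phase. In nocturnal rodents adrenal glucocorticoid secretion climbs late in the rest phase and peaks around its end. The hormone binds the glucocorticoid receptor, a transcription factor that induces target genes such as Tsc22d3, Ddit4, Per1 and Fkbp5. In T cells such hormone cycles are known to act on the receptors for interleukin 7 and for the chemokine CXCL12, encoded by Il7r and Cxcr4. The cell's own clock works through a loop in which BMAL1 and CLOCK drive the Per and Cry repressor genes and the Nr1d1 and Nr1d2 genes.

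Counts on genes were 28628059 and 24689964 in the CT10 libraries and 27101442 and 26349010 in the CT6 libraries, within the 24689964 to 33497078 of all 12. Levels are given in CPM, gene counts relative to the library's total with TMM factors, in the order day 1, day 2. The co-receptor gene Cd8a stood at 1529 and 1355 CPM at CT10, against 1234 and 1383 CPM at CT6. Cd3e, of the T cell receptor complex, stood at 572 and 544 CPM at CT10, against 489.5 and 569 CPM at CT6. The groups overlapped for both genes. Replicate libraries differed beyond sampling noise, by a chi-square over its degrees of freedom of 6.92 between the CT10 libraries and 9.59 between the CT6 libraries.

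The 4 genes described first had their highest levels of all 12 libraries at CT10, and the 250 bases before their start sites are shown so that the letters can be read beside the values. All 4 lie on the minus strand, the sequences are RefSeq's for GRCm38.p6 and run 5′ to 3′ towards the start, and capitals mark each AGAACA or its reverse complement TGTTCT. This hexamer forms each arm of the palindrome that the glucocorticoid receptor recognises, with 3 bases of any kind between the arms.
Ddit4, chr10:59951771-59952020: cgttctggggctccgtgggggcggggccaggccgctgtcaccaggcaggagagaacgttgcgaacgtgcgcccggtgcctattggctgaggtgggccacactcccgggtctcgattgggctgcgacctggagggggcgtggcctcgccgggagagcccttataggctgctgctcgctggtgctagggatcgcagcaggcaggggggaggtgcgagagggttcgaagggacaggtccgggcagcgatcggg
Tsc22d3, chrX:140600523-140600772: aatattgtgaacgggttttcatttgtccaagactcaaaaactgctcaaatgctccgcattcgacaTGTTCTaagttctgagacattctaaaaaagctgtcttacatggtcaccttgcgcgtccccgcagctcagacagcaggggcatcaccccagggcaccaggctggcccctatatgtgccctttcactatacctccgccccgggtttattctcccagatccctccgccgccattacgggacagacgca
Cxcr4, chr1:128592300-128592549: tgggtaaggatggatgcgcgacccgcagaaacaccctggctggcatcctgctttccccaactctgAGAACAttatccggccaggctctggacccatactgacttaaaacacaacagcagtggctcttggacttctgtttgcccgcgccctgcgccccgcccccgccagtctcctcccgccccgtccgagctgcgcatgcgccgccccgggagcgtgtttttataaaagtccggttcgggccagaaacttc
Slc15a2, chr16:36784963-36785212: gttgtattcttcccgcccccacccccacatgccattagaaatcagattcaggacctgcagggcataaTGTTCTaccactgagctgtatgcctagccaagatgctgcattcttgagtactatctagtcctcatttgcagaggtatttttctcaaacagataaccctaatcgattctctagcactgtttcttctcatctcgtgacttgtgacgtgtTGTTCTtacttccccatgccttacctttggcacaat
The hexamer occurred on either strand in 16.1% of all 32851 windows of this kind. Cxcr4 held 1 match, Slc15a2 held 2, and Ddit4 held none. Tsc22d3 has 3 start sites in the table. The window printed, of the start farthest upstream, held 1 match. The windows of the other 2 starts, chrX:140542669-140542918 and chrX:140548572-140548821, held none. Which start these cells use was not tested. The full palindrome occurred in none of these windows and in 3 of the 32851. The windows were also searched for the E-box CACGTG, the FOXO site GTAAACA and the heat shock element TTCNNGAA. These occurred in 6.02%, 3.17% and 7.17% of the 32851 windows and in none of the windows of the genes here. A match is a run of letters and not evidence of binding, and its absence concerns this window alone.

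Ddit4 encodes REDD1, an inhibitor of the growth kinase mTORC1 that is induced by stress and by glucocorticoids. It stood at 113 and 111 CPM at CT10, against 51.9 and 60.1 CPM at CT6. Both CT10 libraries lay above the 10 others, of which the 8 of the remaining times ranged from 49.1 to 74.7 CPM. The log2 difference was 1.00 ± 0.12 (standard error), a 2.00-fold difference, and it was 1.12 on day 1 and 0.88 on day 2. In edgeR's quasi-likelihood F test (Benjamini-Hochberg over all genes) the adjusted p was 0.0908, short of the 0.05 threshold. With the labels' day as a block, whose meaning the labels do not explain, the adjusted p was 0.0365 by the same test. Over 27 settings other than a crossed pairing of the days the log2 difference ranged from 0.90 to 1.33. Ddit4 was past the threshold in 8 of them. With the monocyte and macrophage markers as a term the log2 difference was 0.95.

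Tsc22d3 encodes GILZ, an anti-inflammatory leucine zipper protein and a classical glucocorticoid target. It stood at 264 and 228 CPM at CT10, against 117 and 143 CPM at CT6. No other time reached the CT10 level, the remaining 8 libraries ranging from 123 to 173 CPM. The log2 difference was 0.92 ± 0.14, with an adjusted p of 0.281, from edgeR's quasi-likelihood F test (Benjamini-Hochberg). It was 1.17 on day 1 and 0.67 on day 2, above 0 on both days.

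Cxcr4 encodes the receptor through which lymphocytes follow CXCL12 towards bone marrow and lymphoid stroma. It stood at 96.6 and 102 CPM at CT10, against 64.7 and 58.4 CPM at CT6. Here the 8 remaining libraries came close, from 55.4 to 95.1 CPM, with the upper end at CT14. The log2 difference was 0.69 ± 0.09, with an adjusted p of 0.129, from edgeR's quasi-likelihood F test (Benjamini-Hochberg).

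Slc15a2 encodes PEPT2, a proton-coupled carrier of di- and tripeptides. Its level was 58.7 and 47.2 CPM at CT10, against 27.6 and 23.9 CPM at CT6, and 20.7 to 44.1 CPM in the 8 others. The CT10 libraries were again the highest of the 12. Its log2 difference was 1.04 ± 0.26 (adjusted p = 0.861, edgeR's quasi-likelihood F test with Benjamini-Hochberg), so the spread between libraries was wider than for the 3 genes above.

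**Figure D1:**
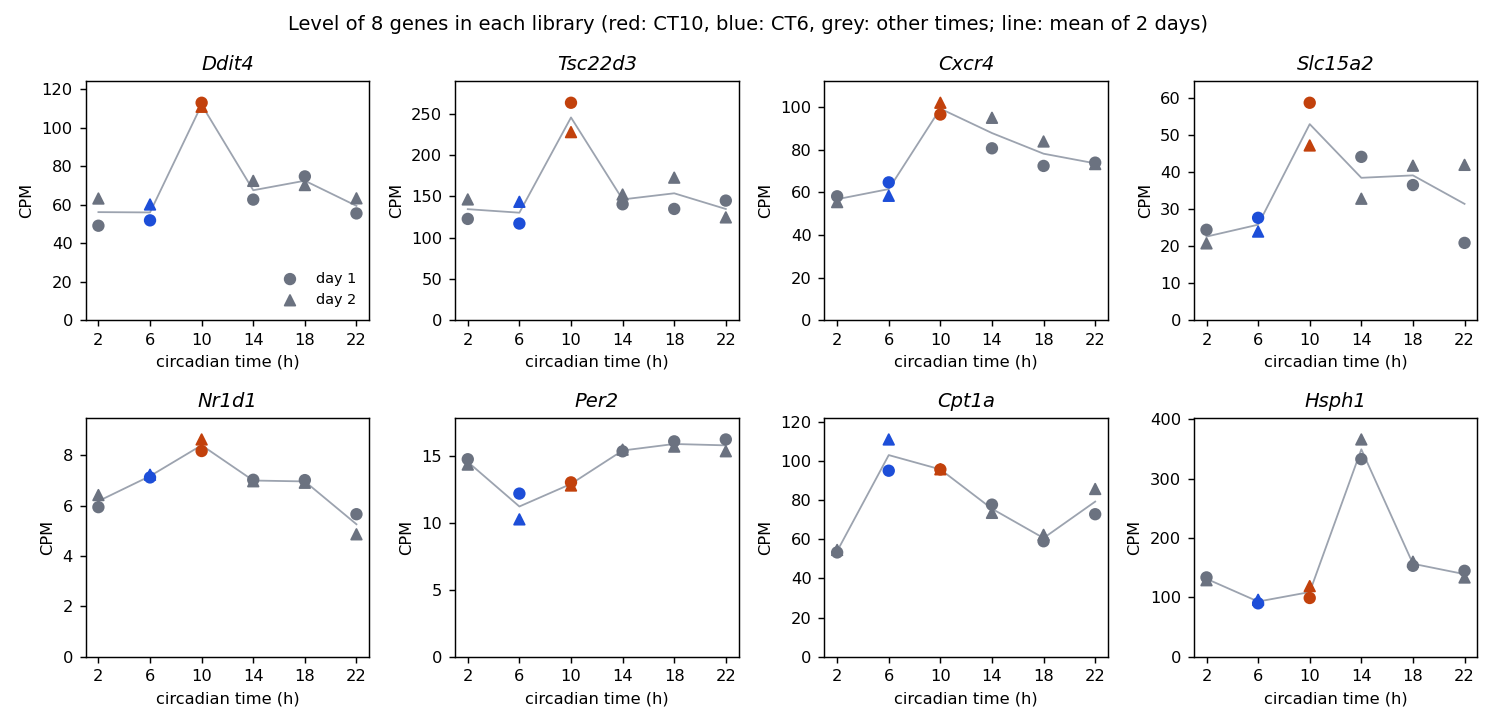
Level in CPM (linear axis from 0) of 8 genes in each of the 12 libraries by circadian time in hours; circles are day 1, triangles day 2 and the grey line joins the means of 2 libraries. Ddit4, Tsc22d3, Cxcr4 and Slc15a2 are highest in the 2 CT10 libraries (red), Nr1d1 is highest there by a small margin, and Per2 and Hsph1 are lowest in the 2 CT6 libraries (blue).

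Across the transcriptome, 0 of 16396 tested genes (0%) passed the adjusted threshold with edgeR's quasi-likelihood test. An unadjusted p under 0.05 was reached by 763 genes (4.65%), and 5% of the tested genes is 819.8. Of the 763, 312 (1.9%) were higher at CT10 and 451 (2.75%) lower. Both CT10 libraries lay above both CT6 libraries for 3151 genes (19.2%) and below them for 2517 (15.4%), and these shares are the background for the counts that follow. DESeq2 called 7 genes and limma on TPM called 1. With 2 libraries a group, an exact permutation test of 1 value cannot give a two-sided p under 0.333, so single genes rest on the fit across all genes.

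The times can also be read by rank. Both CT10 libraries were above the 10 others for 476 genes (2.9%) and below them for 388 (2.37%). Both CT6 libraries were above the 10 others for 195 genes (1.19%) and below them for 310 (1.89%). Over 10128 genes of at least 5 CPM, the median size of the log2 difference between CT10 and CT6 was 0.130 on day 1 and 0.0641 on day 2. The 2 days of 1 time differed by a median of 0.0871 at CT10 and 0.101 at CT6.

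**Figure D2:**
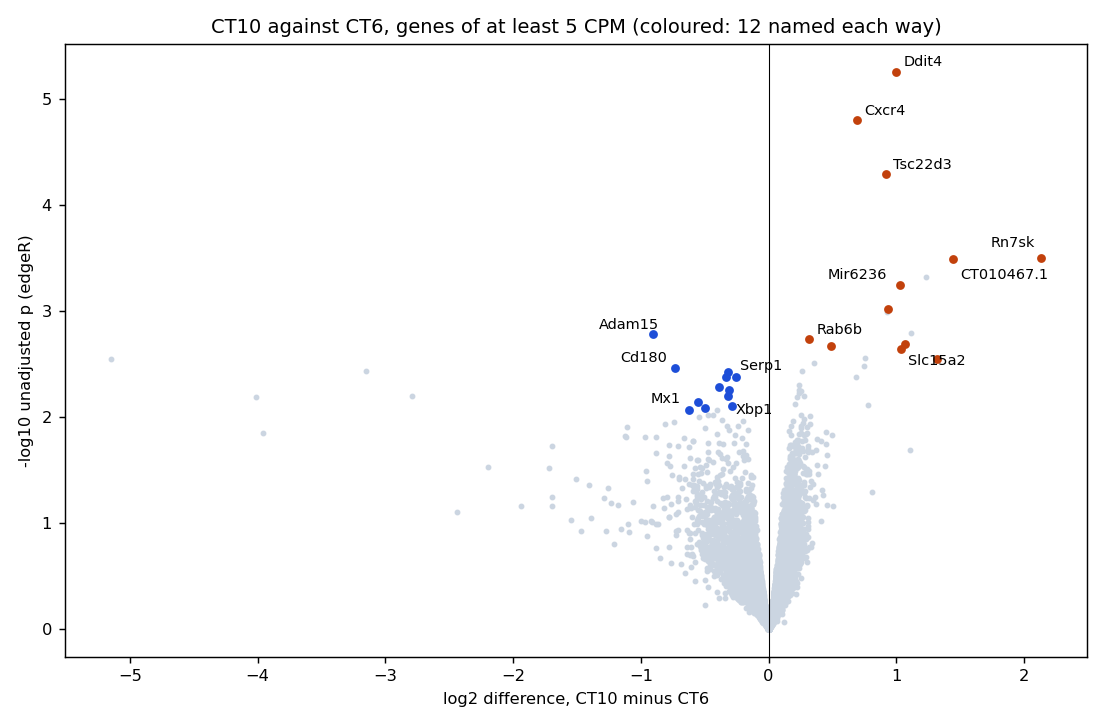
Each point is a gene with a mean of at least 5 CPM over the 4 libraries; the x axis is the log2 difference, CT10 minus CT6, and the y axis is -log10 of edgeR's unadjusted p. Ddit4, Cxcr4 and Tsc22d3 stand above all other genes on the y axis, the red and blue points are the 12 genes named in each direction, and the 5 grey points farthest left are 4 immunoglobulin genes and Glycam1, all high in the CT6 library of day 1.

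Of 18 tested genes of the glucocorticoid response list, 0 passed the adjusted threshold, 6 (33.3%) had both CT10 libraries above CT6 and 2 (11.1%) had them below. The list's median log2 difference was 0.03, against 0.01 for all genes, and 10 of the 18 members had a positive and 8 a negative difference. The 6 were Ddit4, Tsc22d3, Cxcr4, Per1, Il7r and Fkbp5. Per1, a clock repressor gene that glucocorticoids also induce, stood at 45.0 and 40.3 CPM at CT10, against 34.3 and 39.1 CPM at CT6 (log2 difference 0.22 ± 0.09). Il7r, the receptor chain for the survival cytokine interleukin 7, stood at 620.2 and 602 CPM at CT10, against 512 and 540.3 CPM at CT6 (0.21 ± 0.10), and was highest of all times at CT10. Fkbp5, a co-chaperone that dampens the glucocorticoid receptor, stood at 82.2 and 85.4 CPM at CT10, against 70.2 and 75.4 CPM at CT6 (0.20 ± 0.12).

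The other 12 members overlapped or lay below. Klf9 stood at 3.89 and 4.15 CPM at CT10, against 3.53 and 4.01 CPM at CT6, and the kinase gene Sgk1 at 128 and 128 CPM at CT10, against 128 and 139.6 CPM at CT6. For both the groups overlapped. Dusp1, a phosphatase of MAP kinases that early response signals also induce, stood lower, at 47.0 and 55.1 CPM at CT10, against 55.2 and 75.5 CPM at CT6 (log2 difference -0.36 ± 0.26). Cebpd, a bZIP transcription factor, was the other member below and had the most negative difference of the list, at 0.92 and 1.73 CPM at CT10, against 2.14 and 2.20 CPM at CT6 (-0.72 ± 0.50). Mt2, a metallothionein, and Cebpb, a relative of Cebpd, overlapped, with log2 differences of -0.52 ± 0.35 and -0.42 ± 0.32. The receptor gene itself, Nr3c1, stood at 133 and 133 CPM at CT10, against 135 and 130.4 CPM at CT6.

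Among genes of mTOR control, 7 of 21 (33.3%) had both CT10 libraries above CT6 and 0 had them below; none passed the adjusted threshold. Besides Ddit4 they were Pik3ip1, Tsc1, Sesn1, Sesn3, Depdc5 and Rptor. Of these, Ddit4, Pik3ip1, Tsc1, Sesn1, Sesn3 and Depdc5 act as brakes on the pathway, and Rptor is the scaffold of mTORC1. Pik3ip1, an inhibitor of PI3 kinase, stood at 174 and 163 CPM at CT10, against 131 and 151 CPM at CT6 (log2 difference 0.26 ± 0.09). The members Mtor, Rheb, Akt1, Akt2 and Rps6kb1 overlapped, with log2 differences from -0.03 to 0.09. Of the 21, 17 had a positive and 4 a negative log2 difference, the lowest at -0.33. Sesn2, a member of the 4 but not the lowest, had -0.25, at 7.22 and 9.24 CPM at CT10, against 10.7 and 8.86 CPM at CT6, with overlap.

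The FOXO and quiescence list, genes that keep a resting T cell in its naive state, had 8 of 21 members (38.1%) with both CT10 libraries above CT6 and 1 (4.76%) below, and none passed. The list shares Pik3ip1 with the mTOR list, so that gene is counted in both. The list's median log2 difference was 0.15 on day 1 and -0.03 on day 2. Txnip, which restrains glucose uptake and is a known FOXO target, stood at 827 and 744 CPM at CT10, against 609.6 and 665 CPM at CT6. Its log2 difference was 0.30 ± 0.10, and both CT10 libraries were above the 559.6 to 686 CPM of the 8 others. S1pr1, the receptor for exit from lymph nodes, overlapped at 402 and 373 CPM at CT10, against 377 and 413 CPM at CT6. Ccr7, the receptor for lymph node entry along CCL19 and CCL21, was at 371 and 401 CPM at CT10, against 356 and 369 CPM at CT6.

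Among the 17 homing and adhesion genes 4 (23.5%) lay above and 1 (5.88%) below, none past the threshold. Besides Cxcr4, those above included Itgae and Itgb7, integrin chains for binding to epithelium and gut vessels that were singled out after their values were seen, with log2 differences of 0.15 ± 0.06 and 0.15 ± 0.09. Ccr9, the gut homing receptor, overlapped at 158 and 148 CPM at CT10, against 152 and 151 CPM at CT6.

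Cytokine feedback genes also stood on both sides. Pim1, a survival kinase induced through STAT5, stood at 59.7 and 60.6 CPM at CT10, against 71.4 and 77.4 CPM at CT6 (log2 difference -0.31 ± 0.10). Socs1, a feedback inhibitor of cytokine signals, stood at 22.6 and 25.8 CPM at CT10, against 19.6 and 21 CPM at CT6 (0.25 ± 0.11). Of 22 genes of the list, 5 (22.7%) lay above and 1 (4.55%) below, and none passed.

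Clock genes had small differences between CT10 and CT6, and 0 of 12 core genes passed. Both CT10 libraries lay above CT6 for 5 (41.7%) and below for 2 (16.7%), with a median log2 difference of 0.07. Nr1d1, which encodes the repressor REV-ERBα, stood at 8.17 and 8.63 CPM at CT10, against 7.12 and 7.23 CPM at CT6, and CT10 was its highest time (log2 difference 0.23 ± 0.12). Per2 stood at 13.0 and 12.8 CPM at CT10, against 12.2 and 10.3 CPM at CT6 (0.20 ± 0.10), and CT6 was its lowest time, with 14.3 to 16.2 CPM in the 8 other libraries. Arntl, which encodes BMAL1, stood at 28.7 and 28.7 CPM at CT10, against 27.6 and 27.1 CPM at CT6 (0.07 ± 0.09). Per3 overlapped, at 7.04 and 7.62 CPM at CT10, against 7.66 and 4.96 CPM at CT6. So did Nr1d2, at 56.3 and 50.2 CPM at CT10, against 48.6 and 52.7 CPM at CT6. Rora, which encodes an activator of Arntl, lay below, with a log2 difference of -0.19 ± 0.11.

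Of 10 clock output genes 3 (30%) lay above and 5 (50%) below, with a median of -0.13. Dbp, a PAR bZIP factor driven by the clock, stood at 21.8 and 22.1 CPM at CT10, against 18.6 and 20.3 CPM at CT6 (log2 difference 0.18 ± 0.10). Its relative Tef overlapped, at 52.7 and 48.3 CPM at CT10, against 48.8 and 43.5 CPM at CT6. Bhlhe40, a repressor that T cell activation also induces, stood lower, at 9.09 and 14.5 CPM at CT10, against 17.7 and 16.3 CPM at CT6 (-0.53 ± 0.25).

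**Figure D3:**
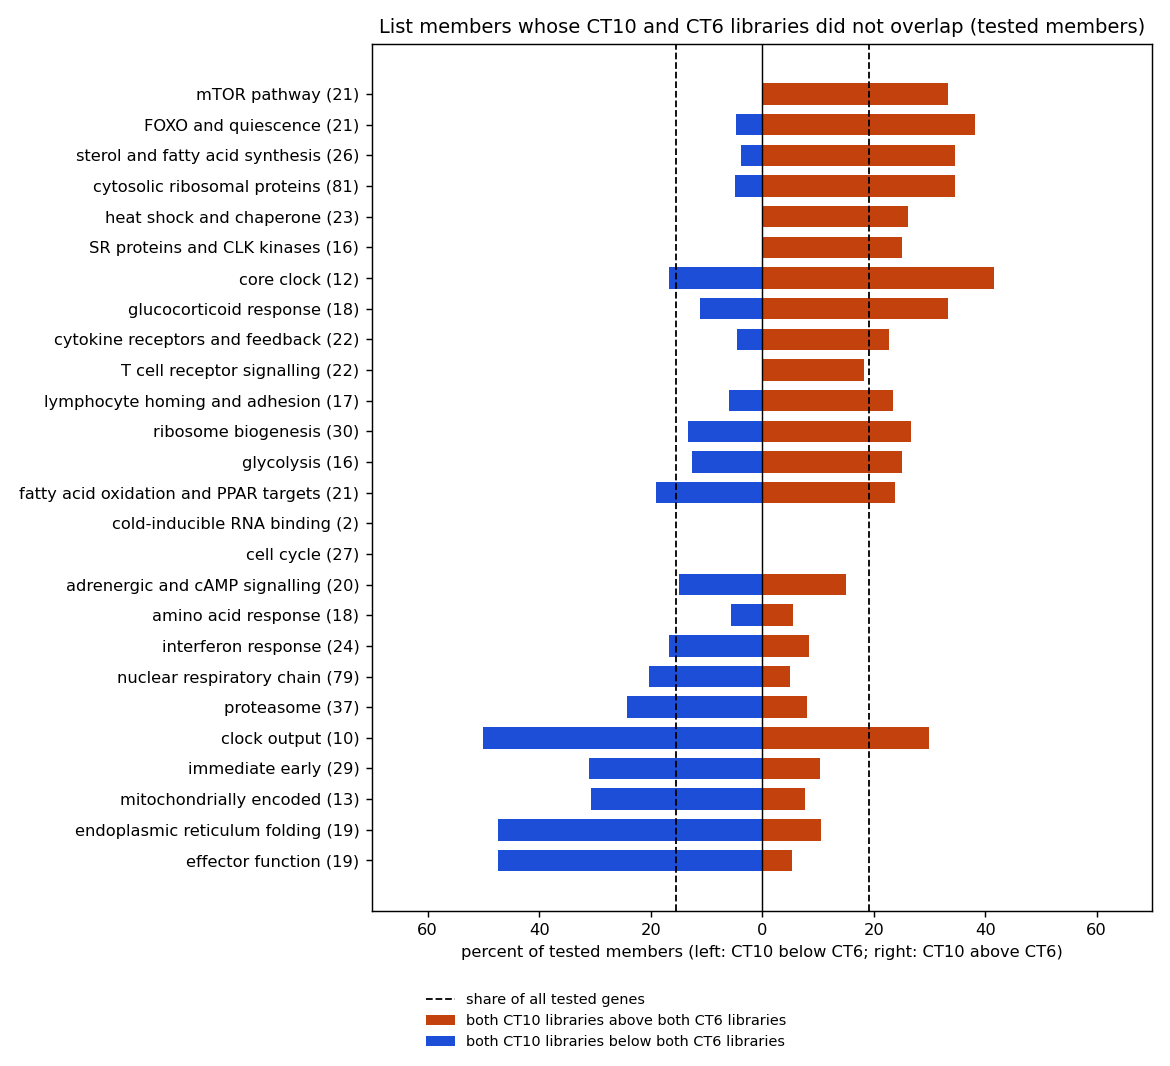
For each gene list (tested members in brackets), the bar to the right is the percent of members with both CT10 libraries above both CT6 libraries and the bar to the left the percent with both below; dashed lines are the shares of all 16396 genes, 19.2% and 15.4%. Lists are ordered by the share above minus the share below. At the top are mTOR (33.3% above, 0% below) and FOXO (38.1% above, 4.76% below), and at the bottom effector function (5.26% above, 47.4% below). Core clock has the largest share above, 41.7%, and clock output the largest below, 50%. Lists share some genes, such as Pik3ip1 (mTOR and FOXO), Ddit4 (mTOR and glucocorticoid response) and Cxcr4 (glucocorticoid response and homing).

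Both CT6 libraries were the lowest of the 12 for the chaperone genes Hsph1 and Ahsa2, and CT10 stood slightly above them. Of 23 heat shock and chaperone genes 6 (26.1%) lay above and 0 below, and none passed. Hsph1, an Hsp110 exchange factor, stood at 99.1 and 119 CPM at CT10, against 90.0 and 96.0 CPM at CT6 (log2 difference 0.23 ± 0.09), below the 129 to 366 CPM of the 8 other libraries. Ahsa2, a relative of the Hsp90 activator AHA1, stood at 26.2 and 26.7 CPM at CT10, against 23.3 and 23.7 CPM at CT6. Hspa8, the constitutive Hsp70, overlapped at 1166 and 1296 CPM at CT10, against 1113 and 1173 CPM at CT6. The inducible copies Hspa1a and Hspa1b, whose near-identical sequences make their counts uncertain, were scarce. Hspa1b stood at 0.46 and 2.78 CPM at CT10, against 0.57 and 0.833 CPM at CT6. Among these the high value was in the CT10 library of day 2, while the 8 other libraries ranged from 1.73 to 22.9 CPM.

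Rbm3 and Cirbp, which encode RNA-binding proteins induced by mild cold, did not separate. Rbm3 stood at 372 and 369 CPM at CT10, against 383 and 353 CPM at CT6, and all 4 values were above the 237 to 316 CPM of the 8 others. Cirbp stood at 127 and 98.9 CPM at CT10, against 105 and 113 CPM at CT6. The log2 differences were 0.01 ± 0.09 for Rbm3 and 0.05 ± 0.17 for Cirbp.

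In metabolism, the sterol and fatty acid synthesis list had 9 of 26 members (34.6%) above and 1 (3.85%) below, none past the threshold. Lss, the lanosterol synthase, stood at 25.7 and 24.1 CPM at CT10, against 19.6 and 19.3 CPM at CT6 (log2 difference 0.36 ± 0.09). Its CT10 libraries were the highest and its CT6 libraries the lowest of the 12. In RSEM's TPM the CT10 values of Lss were 8.83 and 7.53, against 7.06 and 7.39 at CT6. Hmgcs1, Cyp51 and Fasn also lay above, with log2 differences from 0.12 to 0.19. Scd1, a fatty acid desaturase, was the member below, at 22.8 and 20.2 CPM at CT10, against 31.0 and 25.6 CPM at CT6.

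Cpt1a encodes the enzyme that admits long-chain fatty acids to mitochondria. It stood at 95.6 and 95.7 CPM at CT10, against 95.0 and 111 CPM at CT6 (log2 difference -0.11 ± 0.09). All 4 values were above the 53.3 to 85.7 CPM of the 8 other libraries, so these were the 2 highest times. Slc25a20, the carnitine carrier of the same route, stood at 26.3 and 26.5 CPM at CT10, against 28.2 and 30.1 CPM at CT6. The fatty acid oxidation and PPAR target list had 5 of 21 (23.8%) above and 4 (19.0%) below, near the background on both sides. The glycolysis list had 4 of 16 (25%) above and 2 (12.5%) below.

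The 12 genes of smallest p among those lower at CT10, with at least 5 CPM, were led by Adam15, a membrane metalloprotease, at 4.03 and 4.64 CPM at CT10, against 7.41 and 8.82 CPM at CT6 (log2 difference -0.90 ± 0.22). Cd180, a Toll-like receptor relative of B cells and myeloid cells, stood at 15.4 and 20.5 CPM at CT10, against 31.5 and 28.2 CPM at CT6 (-0.73 ± 0.20). Mx1, an interferon-induced antiviral GTPase, stood at 56.0 and 54.1 CPM at CT10, against 73.3 and 82.4 CPM at CT6 (-0.50 ± 0.15). The 8 other libraries ranged from 3.49 to 10.8 CPM for Adam15 and from 45.7 to 87.8 CPM for Mx1, around both groups. Ctsl, Ahr, Ikzf2, Rps6ka5, E2f2, Slc33a1 and Vma21 followed, with log2 differences from -0.62 to -0.29, and Serp1 and Xbp1 complete the 12. Each of the 12 had an adjusted p of 0.861, from edgeR's quasi-likelihood F test (Benjamini-Hochberg).

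Of 19 endoplasmic reticulum folding genes 9 (47.4%) lay below, beside 15.4% of all genes, and 2 (10.5%) above, with a median log2 difference of -0.08 and none past the threshold. Xbp1, the transcription factor of the unfolded protein response that plasma cells hold at high level, stood at 36.4 and 40.6 CPM at CT10, against 51.3 and 44.4 CPM at CT6 (-0.32 ± 0.09). Serp1, which stabilises newly made membrane proteins, stood at 128 and 142 CPM at CT10, against 167 and 154 CPM at CT6 (-0.25 ± 0.07). Both genes were lower in the 2 CT10 libraries than in the 10 others. Hspa5, the Hsp70 of this compartment, stood at 369 and 398 CPM at CT10, against 399.9 and 436 CPM at CT6. Beside these values, the summed level of 4 plasma cell markers was 12.1 and 11.6 CPM at CT10, against 43.2 and 11.7 CPM at CT6. The CT6 library of day 1 stood apart, and its part in the result was not tested. In bulk RNA fewer cells of a type and less RNA per cell cannot be told apart. The log2 difference was -0.49 on day 1 and -0.13 on day 2 for Xbp1, and -0.38 and -0.12 for Serp1. Each of these values sets 1 library against 1.

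Immunoglobulin genes showed the same library more strongly. Ighg2c stood at 9.23 and 7.30 CPM at CT10, against 133 and 14.3 CPM at CT6, and Jchain, which joins secreted antibody units, at 6.23 and 4.40 CPM at CT10, against 29.7 and 4.69 CPM at CT6. Of 130 tested immunoglobulin genes 47 (36.2%) lay below and 6 (4.62%) above, with a median log2 difference of -0.65. Their summed level was 937 and 850.4 CPM at CT10, against 1420.1 and 941 CPM at CT6. Without the CT6 library of day 2, which leaves the library of day 1 alone at that time and assumed to vary like the other groups, 19 genes passed instead of 0, 9 of them immunoglobulin genes.

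Of 19 effector genes, 9 (47.4%) were below and 1 (5.26%) above, with a median log2 difference of -0.23, and none passed. The median was -0.45 on day 1 and 0.00 on day 2. Gzmk, a granzyme of memory CD8+ T cells, was scarce, at 0.708 and 0.565 CPM at CT10, against 1.46 and 1.14 CPM at CT6 (-1.02 ± 0.32). Gzmb, the granzyme of cytotoxic cells, stood at 6.30 and 15.6 CPM at CT10, against 18.9 and 18.6 CPM at CT6. Zeb2, a transcription factor of terminal effector cells that myeloid cells and NK cells also use, stood at 11.9 and 22.0 CPM at CT10, against 25.4 and 29.6 CPM at CT6 (-0.70 ± 0.30). For Gzmb and Zeb2 the lowest value was in the CT10 library of day 1. Tbx21, Nkg7 and Prf1 overlapped, with log2 differences from 0.02 to 0.09.

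Most tested markers of other cells were lower at CT10, while summed levels overlapped in some lists. The log2 difference was negative for 9 of 9 B cell, 7 of 7 NK cell, 6 of 6 neutrophil and 8 of 9 dendritic cell markers. So it was for 7 of 7 CD4 T cell, 3 of 3 plasma cell and 4 of 4 gamma delta T cell markers. The 3 CD8 T cell markers had positive differences, with overlap. On day 2 alone the medians were above 0 for NK cell (0.13), dendritic cell (0.24), CD4 T cell (0.03) and gamma delta T cell (0.03) markers. The summed level of 15 monocyte and macrophage markers was 354 and 619.9 CPM at CT10, against 600.3 and 909 CPM at CT6, and 367 to 1549 CPM in the 8 others. All 15 had a negative log2 difference and 7 (46.7%) lay below. NK cell markers summed to 90.9 and 163 CPM at CT10, against 168 and 169 CPM at CT6, and 107 to 222 CPM in the 8 others. Neutrophil markers summed to 12.5 and 20.2 CPM at CT10, against 21.9 and 61.9 CPM at CT6, and 12.4 to 99.6 CPM in the 8 others. The CT6 library of day 2 was the highest of the 4, and 5 of 6 tested markers (83.3%) lay below. B cell markers summed to 247 and 209.9 CPM at CT10, against 332 and 256 CPM at CT6, and 175 to 350 CPM in the 8 others. Of these 9 markers 5 (55.6%) lay below, beside 15.4% of all genes. Dendritic cell markers overlapped, at 399 and 681 CPM at CT10, against 732 and 538 CPM at CT6. CD4 T cell markers overlapped too, at 114 and 148 CPM at CT10, against 173 and 147 CPM at CT6, as did gamma delta T cell markers. Stroma and endothelium markers summed to 175 and 164.8 CPM at CT10, against 191 and 165 CPM at CT6, and to at most 173 CPM in the 8 others. Of 9 such markers 6 were tested, of which 3 (50%) lay below and 0 above. Among the 6, 5 had a negative and 1 a positive log2 difference, with a median of -0.91. That median was -1.27 on day 1 and -0.04 on day 2. No marker of these lists was at 0 in all 4 libraries at once. A fit with the monocyte and macrophage markers as a term was among the alternatives. Over 27 settings that include it, the log2 difference of Serp1, a lower gene, ranged from -0.32 to -0.18. The part of the other marker lists in the lower genes was not tested.

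**Figure D4:**
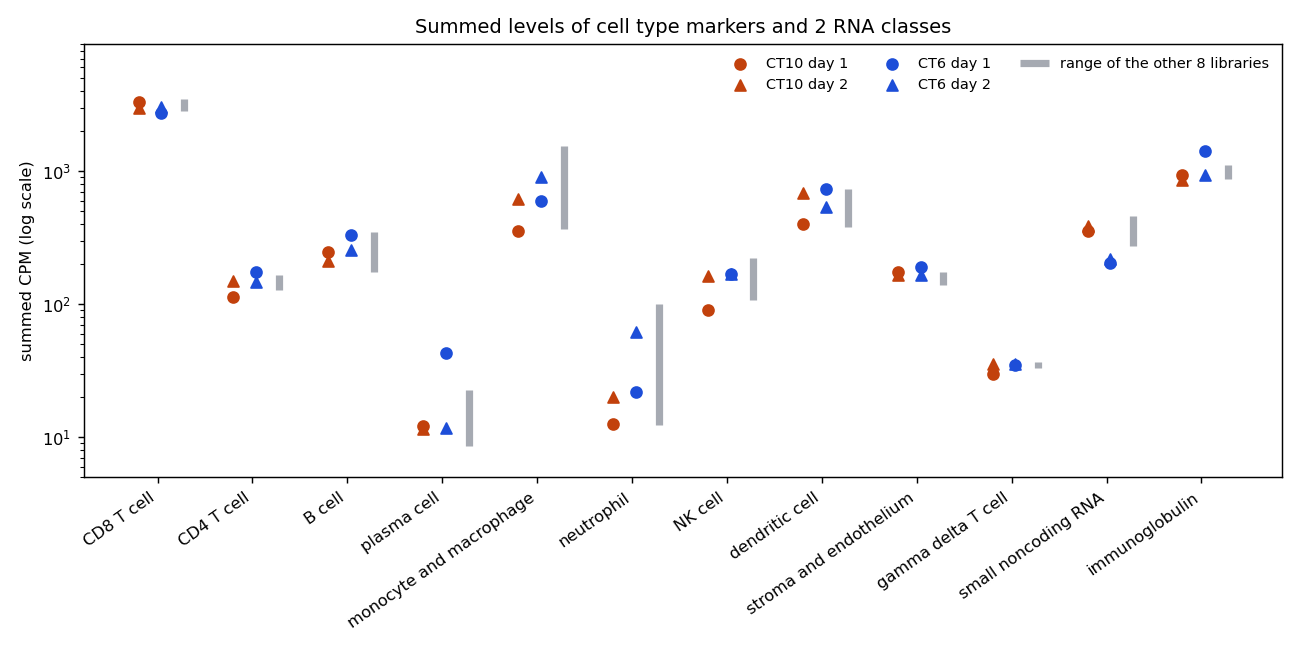
Summed CPM (log axis) of the markers of 10 cell types and of 2 RNA classes; red is CT10, blue is CT6, circles are day 1, triangles day 2 and grey bars span the other 8 libraries. The CT6 library of day 1 is above all others for plasma cell, CD4 T cell, dendritic cell, stroma and endothelium markers and for immunoglobulin genes. Both CT6 libraries, at 203 and 217 CPM, are below all others for small noncoding RNA.

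Small noncoding RNA genes, whose transcripts mostly lack a polyA tail, were the other class that stood above. Of 147 tested, 56 (38.1%) lay above and 20 (13.6%) below, with a median log2 difference of 0.26, and none passed. Their summed level was 356 and 389.7 CPM at CT10, against 203 and 217 CPM at CT6, and 275 to 458 CPM in the 8 others. Here CT6 stood apart, lower than every other time, while CT10 lay within the range of the remaining libraries. Rn7sk, the 7SK RNA that holds the elongation kinase P-TEFb inactive, stood at 55.1 and 61.8 CPM at CT10, against 12.7 and 13.9 CPM at CT6 (log2 difference 2.13 ± 0.41, adjusted p = 0.774, edgeR's quasi-likelihood F test with Benjamini-Hochberg). Rpph1 and Rmrp, the RNA parts of RNase P and RNase MRP, had log2 differences of 0.94 ± 0.21 and 1.07 ± 0.27, and both CT6 libraries were again the lowest of the 12. CT010467.1 stood at 108 and 101 CPM at CT10, against 27.0 and 50.2 CPM at CT6, and the ribosomal RNA gene n-R5-8s1 at 8.85 and 17.8 CPM at CT10, against 5.81 and 4.85 CPM at CT6. Many genes of this class have near copies in the genome, so their counts are uncertain. The predicted gene Gm42418, singled out after its values were seen, stood at 9010 and 8813 CPM at CT10, against 2925 and 4667 CPM at CT6. With the mean log2 level of small noncoding RNA as a term in the fit, a setting added after the values were seen, Ddit4 was the 1 gene to pass (adjusted p = 0.0422, edgeR's quasi-likelihood F test with Benjamini-Hochberg).

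Of 29 early response genes 9 (31.0%) lay below and 3 (10.3%) above, and none passed. Fos, an AP-1 subunit gene, stood at 88.6 and 96.1 CPM at CT10, against 100.4 and 189.8 CPM at CT6 (log2 difference -0.65 ± 0.28). The highest value was in the CT6 library of day 2. Dusp2, a nuclear phosphatase of MAP kinases, stood on the other side, at 252 and 232 CPM at CT10, against 176 and 214 CPM at CT6 (0.31 ± 0.11). Zfp36l2, an mRNA decay factor of quiescent lymphocytes, stood at 694 and 615 CPM at CT10, against 456 and 557 CPM at CT6 (0.37 ± 0.14).

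The other genes named as higher were Rab6b, Grcc10 and Mir6236. Rab6b, a small GTPase of Golgi transport, stood at 43.7 and 41.0 CPM at CT10, against 32.4 and 35.6 CPM at CT6 (log2 difference 0.32 ± 0.08). Grcc10 stood at 19.0 and 16 CPM at CT10, against 12.2 and 12.8 CPM at CT6 (0.49 ± 0.12). In RSEM's TPM, which shares out reads that fit several genes, Grcc10 was at 299 and 303 at CT10, against 299 and 292 at CT6, so its difference appeared in the gene counts alone. Mir6236, annotated as a microRNA gene, stood at 220.1 and 302 CPM at CT10, against 107 and 149 CPM at CT6, with CT6 again lowest of the 12.

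The step from CT6 to CT10 was set against the step from CT18 to CT22, 12 h later, by a contrast of the 2 differences. Of 16396 genes 0 (0%) passed and 774 (4.72%) had an unadjusted p under 0.05, and the smallest adjusted p was 0.217, for Ddit4, from edgeR's quasi-likelihood F test (Benjamini-Hochberg). Ddit4 had a log2 difference of 1.00 over the step to CT10 and -0.29 over the step to CT22, 1.29 ± 0.17 apart. Tsc22d3 had 0.92 and -0.19, and Cxcr4 had 0.69 and -0.09. Nr1d1 had 0.23 over the step to CT10 and -0.40 over the step to CT22, 0.63 ± 0.18 apart. Cpt1a went the other way, with -0.11 over the step to CT10 and 0.39 over the step to CT22, a contrast of -0.49 ± 0.13. Both had an adjusted p of 0.914 by the same test.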

How the data were processed

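PolyA-selected RNA of 12 libraries (6 circadian times, 2 days) had been read; 4 libraries, 2 of CT10 and 2 of CT6, are compared here. The authors deposited unnormalised counts per gene in STAR's layout, and RSEM tables with expected counts (estimated), TPM and FPKM (not used). The submitters' processing notes name, without order, RSEM 1.2.28, STAR 2.5.1b, Trimmomatic 0.35, bcl2fastq 2.19 and the build GRCm38. The annotation release is not given in the sources used here. Column 4 of the counts was used: 11.4% to 13.9% of fragments had no feature there, against 77.6% to 80.9% in column 3. Rows that name no gene (29.3% to 31.2%) were left out. Symbols and coordinates are from GENCODE M21, which matched 50376 of 50600 identifiers.

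Counts were fitted with edgeR 4.0.16 (R 4.3.3): filterByExpr by time, TMM, 1 mean per circadian time over all 12 libraries, quasi-likelihood F tests and Benjamini-Hochberg adjustment over 16396 genes, threshold 0.05, biological coefficient of variation 0.0967. Log2 differences are CT10 minus CT6, ± standard error. Alternatives used DESeq2 1.42.0, limma 3.58.1 on log2(TPM + 1) of the deposited TPM, rounded expected counts, other filters and scalings, left-out libraries and the day as a block. The labels' day pairs the libraries; over 10153 genes the day deviations of 15 pairs of times correlated from -0.60 to 0.35 (median 0.08), and CT10 with CT6 by -0.17. Scripts were tested on simulated counts. The comparison, the lists and the rule for named genes were chosen with earlier results of these data known. The rule took the 12 genes of smallest p each way with at least 5 CPM, the 2 of smallest p in each list and set clock and stress genes; predicted genes and receptor segments were not named unless said. Some genes it took are not reported here.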

Additional observations from a re-analysis of the deposited data

How the results depend on the processing

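Under 28 alternatives, 15 kept 0 genes past the threshold. The count was 7 with DESeq2, 1 and 2 with limma on TPM at a pseudocount of 1 and 0.1, 2 without both CT2 libraries, and 510 with no filter on low counts, of which 46 were higher and 464 lower at CT10. With the replicate block (day) it was 1, Ddit4, and the block changed no other call. With the 4 libraries alone it was 1, Rn7sk, and 1 with the replicate block there; the crossed pairing gave 4. With the small RNA term, added after the data were seen, it was 1. Leaving out each library in turn gave 0 to 19, with 0 in 9 of 12 cases; the 19 came without CT6 of day 2, and 2 each without CT2 of day 1 or day 2. Of the named genes 26 passed with no filter, 4 with DESeq2, 1 with the replicate block, 2 without both CT2 libraries, 1 in the 4 libraries with or without the block, 1 with the small RNA term, and 0 to 2 when each library was left out. Of the list members 32 passed with no filter, 3 with DESeq2, 1 each with the replicate block, without both CT2 libraries and with the small RNA term, and 0 to 1 when each library was left out. For the contrast of the steps the count was 490 with no filter, 3 with DESeq2, 1 with RSEM counts, 1 with TPM and the pseudocount of 0.1, 1 without both CT2 libraries, and 0 to 1 when each library was left out. The cause was not tested. No filter adds genes of very low counts by construction, but genes of the main fit passed there too. Their log2 differences barely moved, as for Ddit4 (0.99, against 1.00 in the main fit) and Txnip (0.29, against 0.30). Over the 27 settings other than the crossed pairing the log2 difference ranged from 0.90 to 1.33 for Ddit4, past the threshold in 8, from 0.60 to 0.77 for Cxcr4, past in 2, from 0.78 to 1.07 for Tsc22d3, past in 2, and from 0.87 to 1.29 for Slc15a2, past in 1; none turned its sign. The crossed pairing, added after the data were seen, also called Ddit4 and Tsc22d3. Depth limits scarce genes such as Gzmk and Trib3.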

Other observations

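None of the genes in the following groups passed the threshold. Of 81 tested cytosolic ribosomal protein genes 28 (34.6%) had both CT10 libraries above both CT6 libraries and 4 (4.94%) below, with a median log2 difference of 0.03. Rplp2, of the ribosomal stalk, stood at 1115 and 1086 CPM at CT10, against 918 and 1075 CPM at CT6. Of 30 ribosome biogenesis genes 8 (26.7%) lay above and 4 (13.3%) below, with a median of 0.13 on day 1 and -0.03 on day 2. Utp4, a factor of small subunit processing, stood at 77.6 and 74.6 CPM at CT10, against 68.2 and 68.1 CPM at CT6, and was highest of all times at CT10. Of 37 proteasome genes 9 (24.3%) lay below and 3 (8.11%) above, and of 13 mitochondrially encoded genes 4 (30.8%) below and 1 (7.69%) above. mt-Nd2, a subunit of respiratory complex I, stood at 1619 and 1563 CPM at CT10, against 1857 and 1705 CPM at CT6.

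None of 27 cell cycle genes separated the groups, although 25 had a negative log2 difference, with a median of -0.21. The median was -0.62 on day 1 and 0.18 on day 2, so the direction turned between days. Ccnb1, the mitotic cyclin B1, stood at 8.07 and 9.80 CPM at CT10, against 14.8 and 8.59 CPM at CT6, so the high value was in the CT6 library of day 1. Of 22 T cell receptor signalling genes 4 (18.2%) lay above and 0 below. Trib3, a pseudokinase induced by amino acid shortage, was scarce, at 0.885 and 0.686 CPM at CT10, against 1.39 and 1.36 CPM at CT6, and CT6 was its highest time.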
